A study of Homo sapiens with 3 samples.

Results

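A set of 9 genes of haematopoietic cytokine signalling was followed, by gene symbol, in the RNA-seq tables of 3 sorted cell populations: the receptor genes KIT, FLT3, CSF1R, EPOR, CSF3R, IL6ST and LIFR and the ligand genes KITLG and FLT3LG. All 9 of them had a row among the 18345 genes of each table, and 5 (KIT, KITLG, EPOR, IL6ST and LIFR) reached 1 FPKM in at least 1 library. The starting cells were H1, a line of human embryonic stem cells in wide use. They received activin A (40 ng/ml) with BMP4 (50 ng/ml) for 2 days, then VEGF (40 ng/ml) with bFGF (50 ng/ml) for 3 days. The labels give day 4, although these stages add up to more. No blood cytokine is among the additions that the labels name for either stage. Cells that carried CD31 and CD34, which the labels call HEPs, were divided by surface CD105 into the populations CD105neg, CD105low and CD105high. Each population had 1 library, so no difference below can be set against a spread between replicates, neighbours in any order of levels are not shown to differ, and every comparison is one of libraries. Levels are the deposited values, read as FPKM (fragments counted relative to transcript length and to the size of the library), which are per length and so can be compared between genes. Fold changes are of the value + 1, so a gene of low level shows a smaller change than its plain ratio would, and a positive log2 fold change means a higher value in the population with more CD105.

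Blood cytokines act on 2 kinds of receptor represented here. KIT, FLT3 and CSF1R are receptor tyrosine kinases, which pair when a ligand binds and phosphorylate one another. EPOR, CSF3R, IL6ST and LIFR are type I cytokine receptors, which have no kinase of their own and signal through bound Janus kinases and STAT factors. During development blood progenitors arise from haemogenic endothelium, and KIT, the receptor for stem cell factor, is among the surface proteins used to describe such cells.

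The libraries followed the sort. ENG, the gene of CD105, had 2.12 FPKM in the CD105neg library, 8.56 in CD105low and 13.8 in CD105high, although the value column of the CD105neg table has a name that reads as CD105 positive. All 10 endothelial markers examined, among them KDR and CDH5, reached 1 FPKM. PECAM1, the gene of CD31, and CD34 are also in that list, and the cells were sorted for both proteins. PTPRC, the pan-leukocyte marker, was at 0.00379 FPKM in CD105neg and listed at 0 in the other 2 libraries, and MPO was listed at 0 in all 3. Other leukocyte and myeloid markers were present, and 5 of the 12 examined reached 1 FPKM in at least 1 library. LAPTM5 was the highest of them, at 51.6, 44.05 and 35.5 FPKM in CD105neg, CD105low and CD105high. The values summed to between 265618 and 289229 per library.

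KIT (ENSG00000157404.15) had 6.76 FPKM in the CD105neg library, 12.2 in CD105low and 15.6 in CD105high. Its level was thus lowest in CD105neg and highest in CD105high, and 62.4%, 74.0% and 80.5% of all genes lay below it in the 3 libraries. The log2 fold change of KIT was 0.77 from CD105neg to CD105low, 0.33 from CD105low to CD105high and 1.10 from CD105neg to CD105high. More of the difference therefore lay between CD105neg and CD105low than between CD105low and CD105high. Of the 11343 genes that reached 1 FPKM in any library, called measured below, 176 had a higher log2 fold change than KIT between CD105high and CD105neg.

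KITLG (ENSG00000049130.14) encodes stem cell factor, the ligand of KIT, which is made as a membrane protein and can be shed. It had 5.22 FPKM in the CD105neg library, 7.59 in CD105low and 10.9 in CD105high, the same order as its receptor. The log2 fold change was 0.47 from CD105neg to CD105low, 0.47 from CD105low to CD105high and 0.93 from CD105neg to CD105high, so the 2 steps of the sort were alike in size, and after centring on the median gene the first 2 of these values were 0.45 and 0.57. For CD105high against CD105low, 220 genes had a higher log2 fold change than KITLG and 449 a higher one than KIT. The ratio of KITLG to KIT levels was 0.77, 0.62 and 0.70 in the 3 libraries. Ligand and receptor were thus present in all 3 populations, and KITLG was below KIT in each. These are bulk samples, in which fewer cells of a type and less RNA per cell cannot be told apart, and in which it cannot be seen whether the same cells hold ligand and receptor.

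**Figure D1:**
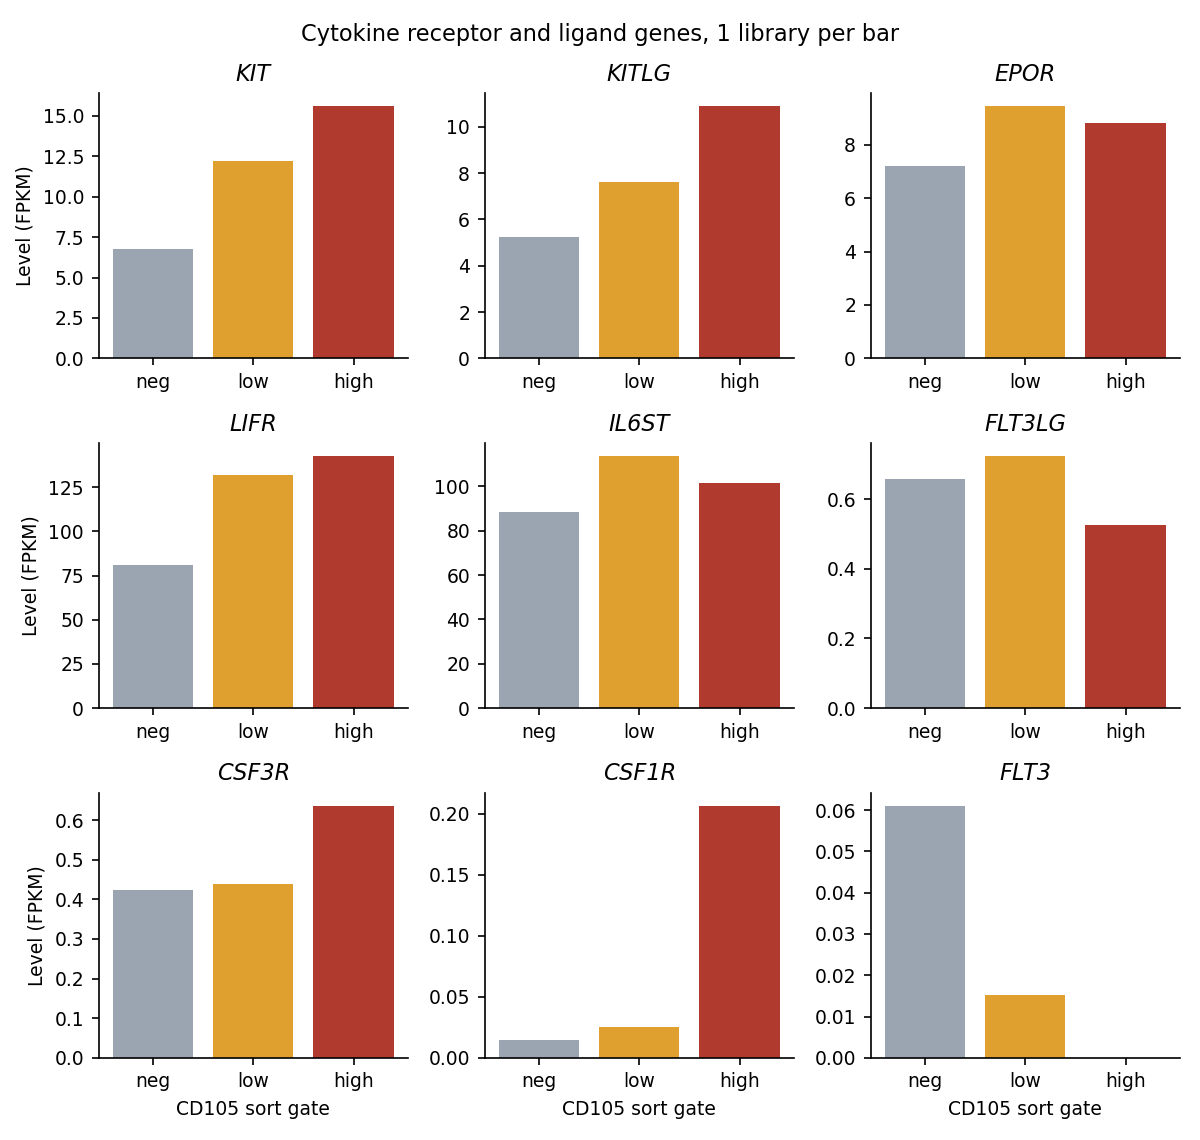
Level in FPKM (vertical axes, linear, each from 0 and each with its own range) of the 9 genes in the CD105neg, CD105low and CD105high libraries, 1 library per bar. KIT, KITLG and LIFR are highest in CD105high, EPOR and IL6ST in CD105low, and the 4 genes from FLT3LG to FLT3 stay below 1 FPKM.

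LIFR (ENSG00000113594.9), the LIF receptor chain, was the member with the highest level in CD105low and CD105high. It had 81.2 FPKM in the CD105neg library, 132 in CD105low and 143 in CD105high, above 97.0%, 98.3% and 98.5% of all genes. Its log2 fold change was 0.69 from CD105neg to CD105low, 0.11 from CD105low to CD105high and 0.81 from CD105neg to CD105high. Most of the difference in LIFR thus lay between CD105neg and CD105low. After centring on the median gene the step from CD105neg to CD105low was 0.68 and that from CD105low to CD105high 0.22. Of the exonic bases of LIFR, 5.30% overlap LIFR-AS1 on the other strand, and the values do not show whether the strands were told apart.

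IL6ST (ENSG00000134352.19) encodes gp130, the chain that LIFR and several other receptors pair with to signal. It had 88.4 FPKM in the CD105neg library, 114 in CD105low and 101 in CD105high, so that it was highest in the middle population. The log2 fold change was 0.36 from CD105neg to CD105low, -0.17 from CD105low to CD105high and 0.20 from CD105neg to CD105high, none of them 1.5-fold. The ratio of LIFR to IL6ST was 0.92 in CD105neg, 1.16 in CD105low and 1.41 in CD105high: the common chain was above LIFR in CD105neg and below it in the other 2 libraries. The value of IL6ST is less certain, since 12.5% of its sampled transcript sequence also occurs in other genes, among them the pseudogene IL6STP1.

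The other chains that work with IL6ST were much lower than LIFR. They are named here for that role, outside the rule for named genes and after their values were seen. IL11RA, the receptor for interleukin-11, stood at 12.7, 15.7 and 11.6 FPKM in CD105neg, CD105low and CD105high. CNTFR, the receptor for ciliary neurotrophic factor, stood at 3.58, 5.08 and 4.31 FPKM, and IL27RA at 4.82, 5.15 and 5.01 FPKM. OSMR, the oncostatin M receptor, stood at 1.95, 2.32 and 1.75 FPKM. IL6R, which binds interleukin-6 and brings it to gp130, was below 1 FPKM in every library, at 0.376, 0.410 and 0.0954 FPKM. Of these pairings, LIFR with IL6ST was thus the one with the most RNA for each chain. The ligand LIF was itself at 0.143, 0.0564 and 0.0586 FPKM, and the other LIFR ligand genes CNTF, CTF1, CLCF1 and OSM were at or below 1.58 FPKM in all 3 libraries. IL11 was the highest of the ligand genes outside the 9, at 4.31, 2.99 and 1.83 FPKM, and was the only one of 5 measured ligand genes past 1.5-fold between CD105high and CD105neg (log2 fold change -0.91). That is 20% lower in a short list, beside 6.88% lower over all measured genes.

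EPOR (ENSG00000187266.13), the receptor for erythropoietin that red cell progenitors need, had 7.19 FPKM in the CD105neg library, 9.45 in CD105low and 8.82 in CD105high. The log2 fold change was 0.35 from CD105neg to CD105low, -0.09 from CD105low to CD105high and 0.26 from CD105neg to CD105high, with the change from CD105low to CD105high turning to 0.02 after centring on the median gene. EPOR thus did not follow the red cell markers, of which RHAG, part of the Rh complex, stood at 26.3, 10.9 and 5.71 FPKM in the same 3 libraries. In CD105high all 8 measured erythroid and megakaryocyte markers lay at least 1.5-fold under their CD105neg level, with a median log2 fold change of -1.58. EPO itself, which is made mainly in kidney and liver, was at or below 0.0576 FPKM.

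**Figure D2:**
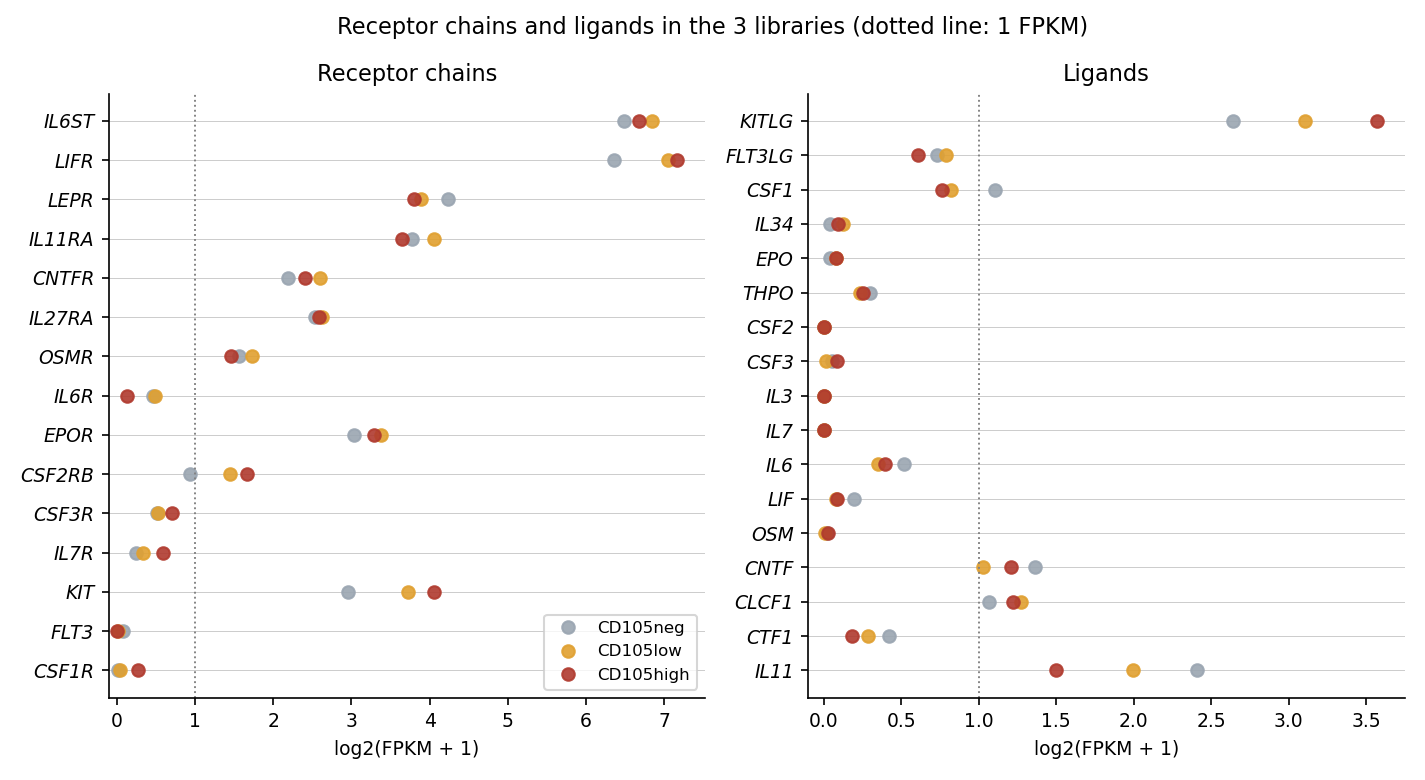
Level as log2(FPKM + 1) (horizontal axes) of receptor chains (left) and ligands (right), with 1 point per library coloured by CD105 population and a dotted line at 1 FPKM. IL6ST and LIFR lie far above the other receptor chains, KITLG is the highest ligand in each library, and most other ligands lie below 1 FPKM.

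The remaining 4 members were below 1 FPKM in all 3 libraries. FLT3, a receptor of lymphoid and dendritic progenitors, was at 0.0611 FPKM in CD105neg and 0.0153 FPKM in CD105low and was listed at 0 in CD105high. CSF1R, the receptor of macrophages, went the other way, at 0.0147, 0.0250 and 0.207 FPKM. The lowest values in these tables move in steps, and over the longest coding transcript of each gene the values of FLT3 correspond to about 36, 10 and 0 steps and those of CSF1R to about 9, 17 and 132. How many reads make up 1 step is not known, so the steps cannot be turned into reads. CSF3R, the receptor of neutrophils for G-CSF, stood at 0.423, 0.439 and 0.637 FPKM. FLT3LG, the ligand of FLT3, stood at 0.657, 0.725 and 0.526 FPKM, and 70.8% of its sampled sequence occurs in other annotated genes, mainly AC010619.2, with which it shares exons, so its level is uncertain. Of the ligands of these receptors, CSF1 stood at 1.15, 0.77 and 0.69 FPKM, and IL34 and CSF3 were below 0.1 FPKM.

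Read down the list, the order of the members differed between the populations. In CD105neg it ran from IL6ST to LIFR, EPOR, KIT and KITLG, and in CD105high from LIFR to IL6ST, KIT, KITLG and EPOR. KIT and KITLG were thus below EPOR in CD105neg and above it in CD105high.

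Between CD105high and CD105neg, 3 of the 5 measured members (KIT, KITLG and LIFR) were at least 1.5-fold higher and none was lower. Over all 11343 measured genes, 5.65% were at least 1.5-fold higher and 6.88% lower. The median log2 fold change was 0.81 over the 5 members and -0.09 over those genes. The members were chosen with earlier results of these data known, so the contrast with all genes is a description and not a test of the set. At least 2-fold, the count was 1, KIT. Between CD105low and CD105neg, 2 of the 5 (KIT and LIFR) were at least 1.5-fold higher and none lower, where 4.13% of all genes were higher and 2.18% lower. The median was 0.47 for the members and 0.02 for all genes. With a pseudocount of 5, KIT dropped below 1.5-fold here (0.55) and LIFR alone remained past it. Between CD105high and CD105low none of the 5 reached 1.5-fold, where 1.18% of all genes were higher and 2.19% lower, and the medians were 0.11 and -0.10. The first 2 comparisons share the CD105neg library, so they are not independent of one another.

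**Figure D3:**
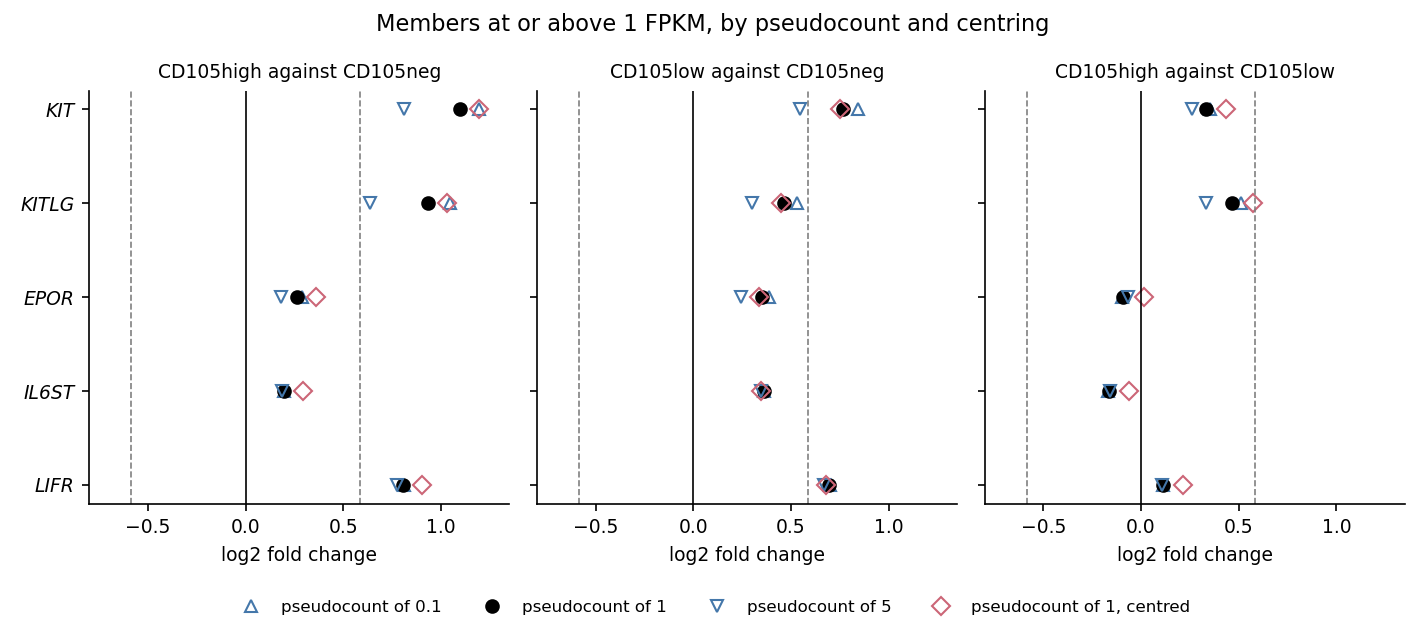
Log2 fold change (horizontal axes) of the 5 measured members in the 3 comparisons of libraries, with pseudocounts of 0.1, 1 and 5 and after centring on the median gene. Dashed lines mark 1.5-fold. KIT, KITLG and LIFR lie right of the line for CD105high against CD105neg at every setting shown, and EPOR and IL6ST lie within the lines in every panel.

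**Figure D4:**
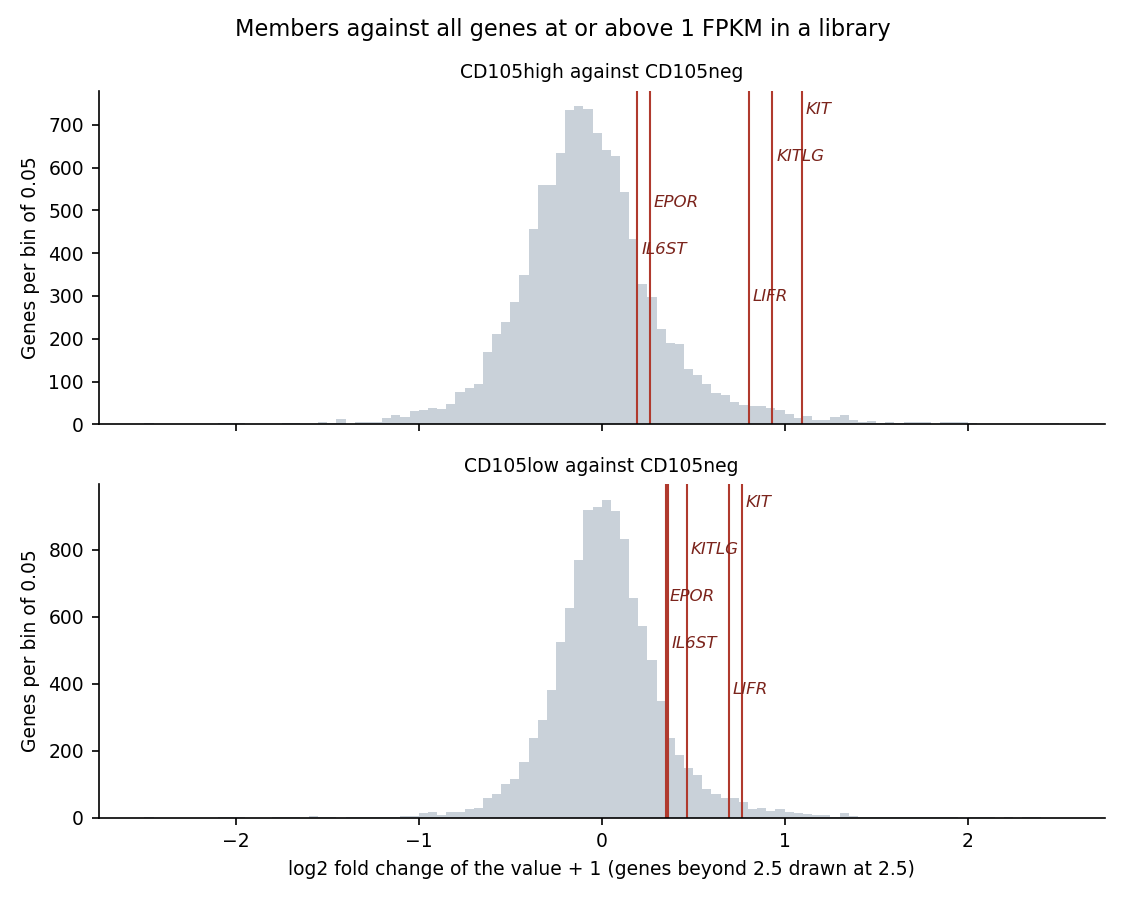
Distribution of the log2 fold change of the value + 1 over the 11343 measured genes (grey, genes per bin of 0.05) for CD105high and for CD105low against CD105neg, with the 5 measured members as red lines. KIT, KITLG and LIFR lie in the right tail of the upper panel, and EPOR and IL6ST on the right shoulder of both.

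The genes whose levels ran most like those of these members were found by the distance between centred log2(value + 1) profiles over the 3 libraries. The search covered 5828 genes that reached 10 FPKM in any library. Clone-named, small RNA, histone and mitochondrial genes had been left out by name. Closest to KIT were ITPKB, an inositol phosphate kinase gene (distance 0.0084), the tetraspanin gene CD9 (0.013) and SH3TC1 (0.016). Closest to LIFR were ARPC5, part of the Arp2/3 complex of actin (0.0099), the phosphate transporter gene SLC20A1 (0.010) and ICA1 (0.032). Closest to KITLG were GAB1 (0.039), SEC14L1 (0.054) and the GTPase gene RHOB (0.059). With only 3 libraries such likeness is common: 29 genes lay within 0.1 of KIT, 53 within 0.1 of LIFR and 15 within 0.1 of KITLG.

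The start regions of KIT, KITLG and LIFR, the members that were at least 1.5-fold higher in CD105high than in CD105neg, are shown for the 250 bases before each start that RefSeq gives on GRCh38.p14, 5′ to 3′ on the strand of the gene. LIFR has 3 such starts, and a value per gene does not tell which of them was used. The KIT window lies at chr4:54657707-54657956 on the plus strand, that of KITLG at chr12:88580472-88580721 on the minus strand, and those of LIFR at chr5:38595406-38595655, chr5:38557468-38557717 and chr5:38556647-38556896 on the minus strand, named starts A, B and C in that order. Capitals mark matches to the 6 letter patterns described next.
KIT: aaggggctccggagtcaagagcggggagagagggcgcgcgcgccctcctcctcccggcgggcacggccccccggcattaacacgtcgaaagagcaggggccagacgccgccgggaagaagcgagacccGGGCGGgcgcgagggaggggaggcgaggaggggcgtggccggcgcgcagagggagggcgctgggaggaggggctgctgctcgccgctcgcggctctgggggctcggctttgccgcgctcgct
KITLG: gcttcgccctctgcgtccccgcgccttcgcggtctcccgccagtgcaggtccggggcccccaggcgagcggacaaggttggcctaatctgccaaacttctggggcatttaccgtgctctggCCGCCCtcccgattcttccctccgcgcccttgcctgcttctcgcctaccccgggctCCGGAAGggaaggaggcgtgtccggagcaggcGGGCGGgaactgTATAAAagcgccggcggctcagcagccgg
LIFR start A: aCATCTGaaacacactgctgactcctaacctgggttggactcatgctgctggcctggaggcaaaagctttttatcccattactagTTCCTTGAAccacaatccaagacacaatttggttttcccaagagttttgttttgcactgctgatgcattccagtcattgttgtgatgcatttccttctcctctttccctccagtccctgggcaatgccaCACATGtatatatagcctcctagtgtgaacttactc
LIFR start B: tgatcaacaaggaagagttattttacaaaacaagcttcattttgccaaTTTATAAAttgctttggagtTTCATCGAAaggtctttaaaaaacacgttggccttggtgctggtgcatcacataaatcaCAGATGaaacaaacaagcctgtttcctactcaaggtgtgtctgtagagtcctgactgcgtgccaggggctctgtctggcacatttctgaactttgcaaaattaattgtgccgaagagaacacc
LIFR start C: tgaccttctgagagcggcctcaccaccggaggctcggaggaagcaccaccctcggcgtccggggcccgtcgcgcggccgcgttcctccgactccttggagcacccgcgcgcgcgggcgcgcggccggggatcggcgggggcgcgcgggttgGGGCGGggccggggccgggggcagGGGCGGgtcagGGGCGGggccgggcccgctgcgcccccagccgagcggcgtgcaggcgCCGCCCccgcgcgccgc

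The patterns were searched on both strands, and matches that overlap run together in the capitals. They were the TATA box TATAAA, the GC box GGGCGG, the E-box CANNTG, the GATA pattern AGATAA, the STAT pattern TTCNNNGAA and the ETS pattern CCGGAAG. The GC box was found in the windows of KIT (1 match), KITLG (2) and LIFR start C (4), and in 42.6% of the 35116 windows of that length. GC content was 76.4% for KIT, 69.2% for KITLG and 83.6% for LIFR start C, against 45.2% and 40.8% for LIFR starts A and B, with a median of 58% over all windows. KITLG alone of these windows held the ETS pattern, found in 8.52% of all windows, and it had a TATA box whose first base lay 29 bases before the start. LIFR start B held that pattern as well, with matches 202 and 200 bases before the start, and 10.7% of all windows held it. The E-box was found at LIFR starts A (2 matches) and B (1), and in 61.8% of all windows. The STAT pattern was found at LIFR starts A and B and in 6.57% of all windows. The GATA pattern was in none of these 5 windows. Among all 14 windows of the 9 members it was found in that of EPOR, 78 bases before the start, and in 9.17% of all windows. A match is a run of letters and says nothing of a factor bound there.

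Beyond the 9 genes, the receptors' partners and the machinery below them were mostly within 1.5-fold between the populations. Over all measured genes, 5.65% were at least 1.5-fold higher in CD105high than in CD105neg and 6.88% lower. Of 10 measured members of the short list of other type I cytokine receptors, 2 (20%) were higher and none was lower (median log2 fold change -0.03). These were IL13RA1, a chain of the interleukin-13 receptor, at 9.59, 17.8 and 19.5 FPKM in CD105neg, CD105low and CD105high, and CSF2RB, the common beta chain for GM-CSF, interleukin-3 and interleukin-5, at 0.91, 1.72 and 2.17 FPKM. LEPR, the leptin receptor, stood at 17.8, 13.8 and 12.97 FPKM. The CSF2RB ligands CSF2, IL3 and IL5 were listed at 0 in all 3 libraries.

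Of 34 kinases and adaptors that act below these receptors, all measured, 3 were at least 1.5-fold higher in CD105high than in CD105neg and 3 lower (median 0.04). That is 8.82% each way, near the 5.65% higher and 6.88% lower over all measured genes, so the count does not set the list apart. JAK1, a Janus kinase that gp130 receptors use, stood at 38.7, 56.2 and 70.3 FPKM (log2 fold change 0.84). GAB1, a docking adaptor, stood at 7.24, 9.95 and 14.5 FPKM (0.91), and PIK3CA, the catalytic chain of a PI3-kinase, at 6.30, 9.47 and 10.1 FPKM (0.61). JAK2, which EPOR uses, stood at 5.35, 6.19 and 6.01 FPKM and thus, like EPOR, stayed within 1.5-fold. The 3 lower genes encode an exchange factor and 2 tyrosine kinases. VAV1, an exchange factor best known from blood cells, stood at 8.84, 4.86 and 3.43 FPKM (-1.15), the Tec family kinase gene BTK at 40.1, 28.8 and 19.8 FPKM (-0.99) and SRC at 17.9, 15.4 and 10.6 FPKM (-0.70). With a pseudocount of 5, PIK3CA (0.42) and SRC (-0.55) were within 1.5-fold. PIK3CA, SRC and JAK2 were named after their values were seen. The most abundant genes of this list, FYN and SHC1, stood at 65.6, 78.0 and 78.7 FPKM and 69.4, 78.3 and 72.8 FPKM, with 19.7% of the sampled sequence of SHC1 shared with other genes. STAT factors are not analysed here.

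Of 18 measured negative regulators, 1 was at least 1.5-fold higher in CD105high than in CD105neg and 1 lower (median 0.03), a share of 5.56% each way beside the same background. After centring on the median gene 3 were higher, with SH2B2 (0.62) and SOCS3 (0.59) joining SOCS2. SOCS2, a suppressor of cytokine signalling, stood at 3.08, 4.09 and 6.003 FPKM, and PTPRJ, a receptor phosphatase, at 2.83, 1.62 and 1.05 FPKM. SOCS3, which STAT3 induces and which binds gp130, was the most abundant, at 56.5, 72.5 and 79.6 FPKM (log2 fold change 0.49), and SH2B3, an adaptor that restrains KIT signalling, stood at 33.6, 36.0 and 31.3 FPKM. SH2B2 stood at 1.14, 1.68 and 2.08 FPKM and PTPN2 at 9.26, 8.43 and 5.95 FPKM. CISH, a target of EPOR and STAT5 signalling, was below 1 FPKM throughout. It was named after its values were seen.

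Of 11 measured genes that respond to cytokines, 1 was at least 1.5-fold higher in CD105high than in CD105neg and 2 were lower (median 0.14). That is 9.09% and 18.2% of a short list, beside 5.65% and 6.88% over all measured genes. After centring on the median gene 2 were higher and 1 was lower. PIM3, a survival kinase gene, stood at 67.0, 131 and 141 FPKM (1.07). TFRC, the transferrin receptor, stood at 12.6, 10.6 and 6.52 FPKM (-0.85), and BCL2L1, which encodes the survival protein BCL-XL, at 31.8, 24.4 and 20.2 FPKM (-0.63). Of the sampled sequence of BCL2L1, 47.7% also occurs in ABALON on the other strand, so its value is uncertain. MCL1 stood at 76.7, 81.9 and 88.8 FPKM and CCND3 at 22.3, 17.3 and 14.7 FPKM. The call of BCL2L1 was lost after centring (-0.53) and with a pseudocount of 5 (-0.55), and the gene that became higher on centring was CCND1 (0.61), which encodes cyclin D1 and was named after its values were seen. Among 8 proteases and cofactors that shed cytokines or their receptors, MMP14 was at least 1.5-fold higher, at 89.0, 139 and 158 FPKM, and ADAM8 at least 1.5-fold lower, at 1.79, 1.13 and 0.47 FPKM (median of the list 0.11). That is 12.5% each way of a short list, beside the same background. MMP9, which can release soluble KITLG, stood at 2.46, 2.56 and 2.31 FPKM. MMP9 was named after its values were seen.

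**Figure D5:**
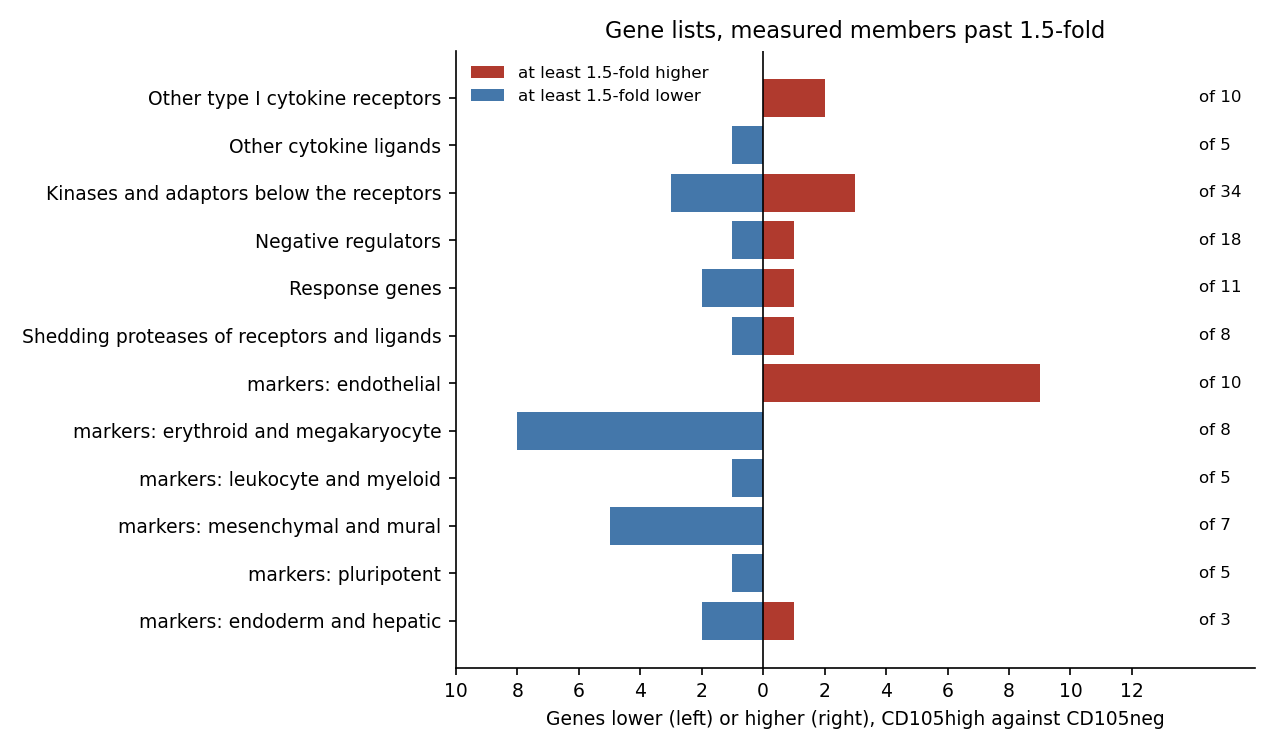
Number of measured genes (horizontal axis) at least 1.5-fold higher (red, right) or lower (blue, left) in CD105high than in CD105neg for 6 lists of cytokine signalling genes and 6 lists of cell type markers, with the number measured at the right. In the signalling lists at most 3 genes lie on either side, whereas 9 of 10 endothelial markers are higher and 8 of 8 erythroid and megakaryocyte markers lower. The 9 include PECAM1 and CD34, whose proteins were used in the sort.

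Markers of several cell types moved with the sort beside KIT, KITLG and LIFR. Over all measured genes, 5.65% were at least 1.5-fold higher in CD105high than in CD105neg and 6.88% lower. Of 10 endothelial markers 9 were at least 1.5-fold higher in CD105high than in CD105neg, with a median log2 fold change of 0.76, near the 0.81 of LIFR and below the 1.10 of KIT. The 9 include PECAM1 (0.73) and CD34 (1.01), and every population was sorted for the proteins of these genes. The summed level of the 10 was 1288, 1732 and 1775 FPKM in CD105neg, CD105low and CD105high. Most of it was EGFL7, at 558, 630 and 528 FPKM, and KDR, at 430, 644 and 713 FPKM. The summed level of the 10 erythroid and megakaryocyte markers was 62.6, 25.3 and 12.0 FPKM. That of the 8 mesenchymal and mural markers was 259, 246 and 196 FPKM, 5 of 7 measured ones being lower. The largest part of this sum was RGS5, at 114, 124 and 111 FPKM. The 12 leukocyte and myeloid markers summed to 62.2, 54.3 and 43.6 FPKM, most of it LAPTM5 at 51.6, 44.05 and 35.5 FPKM, and 1 of 5 measured was lower, SPN. Of the 5 pluripotency markers 1 was lower and none higher, with sums of 101, 92.7 and 82.6 FPKM, and the 6 endoderm and hepatic markers summed to 9.01, 7.19 and 7.81 FPKM, with 1 of 3 measured higher and 2 lower. The part of these differences in the levels of KIT, KITLG and LIFR was not tested.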

How the data were processed

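RNA-seq of 3 sorted populations, 1 library each, was analysed. Per the labels' protocols, libraries were made with a TruSeq RNA kit from 2 ug of total RNA. BWA, Bowtie and RSEM, and the build hg19, are listed without role or order in the submitters' processing notes. Annotation: not given in the sources used here. The deposited tables hold 1 value per gene with no unit named, and RSEM is among the tools of the notes. Values as deposited by the authors were read as FPKM, because RSEM writes FPKM or TPM and their sums are far below that of TPM, which does not settle the matter. Conversion to TPM would multiply each library by 1 factor, and so would also change the effect of the pseudocount and of the filter at 1. Centring only shifts the log2 fold changes and does not cover that. The number of reads is unknown, so no counting interval is given. The spacing of the lowest values puts the depth of CD105low at about 1.11 times and that of CD105high at about 1.04 times the CD105neg depth. The fit of the spacing was partial, with a mean cosine of 0.52, 0.55 and 0.52 in CD105neg, CD105low and CD105high (1 if every value lay on a step).

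Fold changes used log2(value + 1) on the deposited scale. Measured genes, those that reached 1 FPKM in any library, were counted past 1.5-fold. With 1 library per group no test was run. The code that makes the calls was run on simulated libraries, with changes of 2-fold or more put into genes at or above 10 FPKM. Smaller changes, changes in lower genes and the real spread between libraries were not covered, so the run says nothing of how sure a call is. Pseudocounts of 0.1 and 5, centring on the median of genes at or above 10 FPKM, upper-quartile scaling, other filters and a 2-fold rule were tried. Named genes were the 9 members, up to 4 genes per pathway list with the largest change between CD105high and CD105neg, the 2 of highest level, and the 3 of most like pattern. Some that the rule gave are left out of the text (EBI3, ADAM9, ADAM10 and RHBDF2 among them). Some items of the receptor list are counted in it but not reported by name here. The members and lists were chosen with earlier results of these data known.

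Identifiers were matched without version to GENCODE 29 (18317 of 18345 genes, 16810 with the same version), which is on GRCh38. It was used for transcript lengths, for overlaps of exons and for shared sequence, the share of 50-base pieces taken every 40 bases that also occur in transcripts of another gene. Start regions came from RefSeq (all 9 members matched). Python 3.11.15, pandas 2.3.3 and numpy 2.4.6 were used.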

Additional observations from a re-analysis of the deposited data

How the results depend on the processing

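Counts of members past 1.5-fold kept within 1.5 times of the reported count under 39 alternatives. Most of these were counts of 0 that stayed at 0, which says little of stability. They were the lower counts of every comparison and the higher count of CD105high against CD105low. Only the higher counts against CD105neg, 3 for CD105high and 2 for CD105low, were above 0. The 3 alternatives that moved further all fell on those counts. At 2-fold, 1 member was higher in CD105high than in CD105neg and 0 in CD105low than in CD105neg. With a pseudocount of 5, 1 was higher in CD105low than in CD105neg. These follow from a larger threshold and from a pseudocount that is large beside the level of KIT. Over the 4 other scales, KIT, KITLG and LIFR kept their direction in all 3 comparisons, with log2 fold changes for CD105high against CD105neg of 0.81 to 1.20, 0.64 to 1.04 and 0.78 to 0.90. EPOR, for CD105high against CD105low, ranged from -0.10 to 0.02. With a pseudocount of 0.1, CSF1R was past 1.5-fold for CD105high against CD105neg (1.42) and against CD105low (1.29), and FLT3 for CD105high against CD105neg (-0.69). All 3 values are of genes below 1 FPKM, and were within 1.5-fold at the other settings. Of the counts for the pathway lists, 118 stayed within 1.5 times and 26 moved further. No reported count of these lists was above 3, so whether larger counts would hold cannot be seen. With a pseudocount of 5, none of the other ligands and negative regulators was past 1.5-fold between CD105high and CD105neg, IL11, SOCS2 and PTPRJ included, nor were ADAM8 and CSF2RB. On centring, the negative regulators higher in CD105high than in CD105neg went from 1 to 3, and the response genes from 1 higher and 2 lower to 2 higher and 1 lower. Centring shifts the comparisons by the median of genes at or above 10 FPKM, which was -0.10, 0.02 and -0.11. No paired analysis was possible because each group had 1 library, and no library could be left out.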

Other observations

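Among the type I cytokine receptor genes below 1 FPKM, which the counts leave out, some ran along the sort and others, such as IL6R and GHR, did not. With 3 libraries, such an order can easily arise without a trend. IL2RB, the beta chain of the interleukin-2 receptor, had 0.698 FPKM in the CD105neg library, 0.503 in CD105low and 0.327 in CD105high, and IL13RA2, the decoy receptor for interleukin-13, had 0.266, 0.1201 and 0.0484 FPKM. IL7R, the interleukin-7 receptor chain of lymphoid progenitors, stood at 0.190, 0.259 and 0.508 FPKM, and IL21R at 0.3004, 0.855 and 0.902 FPKM. These genes were chosen after their values were seen, and the interleukin-7 gene IL7 was listed at 0 in all 3 libraries.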
